A study of Mus musculus with 4 samples.

Results

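Glutathione S-transferases were followed in quadriceps RNA of wild-type (WT) mice and of mice that lack the α2 exon of Mef2d (Mef2dα2 Eko, called Eko from here on). The genes were taken from the count table by symbol: the mu-class genes Gstm1 to Gstm7, and Gsta4, Gstp1 and Gstt1 of the alpha, pi and theta classes as comparison, 10 of the 51826 rows of the table. They were chosen with the WT and Eko values known, so the values below describe these genes and are not tests of them. MEF2D is a transcription factor whose muscle-specific isoform carries the α2 exon, and the study asked which transcripts change in muscle when that isoform is missing. All 4 mice were males of about 20 weeks, sedentary and on standard chow, from the C57BL6/J background. The WT and the homozygous Eko mice came from crosses of heterozygous parents, and each genotype gave 2 mice with 1 library each. The exon had been deleted in the germline with CRISPR-Cas9, so every tissue of these mice lacks it. The study kept 2 founder lines, and which of them gave the sequenced mice is not given in the sources used here.

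Glutathione S-transferases join the tripeptide glutathione to reactive and electrophilic compounds, such as products of lipid peroxidation, which makes them more soluble and easier to export. The cytosolic enzymes work as dimers and fall into classes by sequence, among them alpha, mu, pi and theta. In many tissues their genes respond to the stress-activated factor Nrf2, encoded by Nfe2l2, which binds antioxidant response elements and is held in check by Keap1.

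The mu-class genes form a single cluster on chromosome 3 of GRCm38 that runs from 107895821 to 108044894, a span of 149 kb. Gstm5 lies at the end nearest to Mef2d, on the plus strand, and the other 6 lie on the minus strand in the order Gstm7, Gstm6, Gstm3, Gstm2, Gstm1 and Gstm4. Mef2d is on the same chromosome but ends at 88172086, 19.7 Mb before the cluster, so the 2 loci are not neighbours. Gstm2 runs from 107981702 to 107986453 and Gstm1 from 108012255 to 108017973. Gsta4 is on chromosome 9 (78182774 to 78209349, plus strand), Gstp1 on chromosome 19 (4035407 to 4037985, minus strand) and Gstt1 on chromosome 10 (75783813 to 75798584, minus strand). Each mu-class gene has 8 exons in the transcript used for its length, against 7 in Gsta4 and Gstp1 and 4 in Gstt1. Gstm5 overlaps 4933431E20Rik on the other strand, and the strand setting of the counting is not given in the sources used here, so reads of those genes may not be separable.

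The mu-class coding sequences are close relatives. Gstm1 and Gstm3 were identical at 89.4% of aligned bases, Gstm1 and Gstm2 at 85.9%, and Gstm5 and the other mu-class genes at 69.9% to 72.6%. Between classes identity was 51.6% to 57.5%. Read sharing was measured as the share of 75-base windows of a transcript that also occur, base for base, in a transcript of another gene. That share was 14.8% for Gstm1, with Gstm2-ps1, Gstm3 and Gm8834, and 3.13% for Gstm2, with Gm12499. It was 21.6% for Gstm3, 5.34% for Gstm6 and 57.7% for Gstp1, the last with Gstp2 and Gstp-ps. No such window was found in Gstm4, Gstm5, Gstm7, Gsta4 or Gstt1. The counts of Gstm1 and Gstp1 therefore depend in part on how RSEM divided reads among near copies, while the 5 genes without shared windows have no such copy at this window length.

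The upstream sequences of Gstm1, Gstm2 and Gstm5 are shown because Gstm1 and Gstm2 were both higher in the Eko mice and Gstm5, at the edge of the cluster, was not. They are RefSeq promoter sequences on GRCm38.p6, given 5′ to 3′ on the strand of the gene, with matches to the searched motifs in capitals. They end where the gene begins in GENCODE M21. For Gstm2 and Gstm5 that lies before the RefSeq start, so only 217 bases are shown.
Gstm1, chr3:108017974-108018223, minus strand: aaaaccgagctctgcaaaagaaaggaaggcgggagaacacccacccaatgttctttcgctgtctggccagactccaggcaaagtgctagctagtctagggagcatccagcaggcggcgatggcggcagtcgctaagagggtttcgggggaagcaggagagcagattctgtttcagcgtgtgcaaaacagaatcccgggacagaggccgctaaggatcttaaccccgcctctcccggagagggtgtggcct
Gstm2, chr3:107986454-107986670, minus strand: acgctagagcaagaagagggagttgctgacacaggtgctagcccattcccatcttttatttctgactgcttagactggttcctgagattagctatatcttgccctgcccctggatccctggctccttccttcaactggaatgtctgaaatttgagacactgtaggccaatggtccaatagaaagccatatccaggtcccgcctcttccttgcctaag
Gstm5, chr3:107895604-107895820, plus strand: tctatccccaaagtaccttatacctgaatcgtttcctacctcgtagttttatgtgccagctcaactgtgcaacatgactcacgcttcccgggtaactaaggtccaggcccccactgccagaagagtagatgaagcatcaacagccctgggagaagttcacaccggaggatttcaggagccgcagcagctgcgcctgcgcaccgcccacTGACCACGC
Of the 10 genes, 9 had a RefSeq promoter window, which covers 250 bases before and 50 after the RefSeq start, and these were searched on both strands. The antioxidant response element TGACNNNGC was found in 1 of the 9, Gstm5, at 42 bases before the RefSeq start, and in 12.4% of all promoter windows. In Gstm5 it lies directly before the GENCODE gene start. The Nrf2-small Maf element TGANTCAGC was found in 1, Gstp1, at 74 bases before the RefSeq start, and in 1.19% of all windows. In Gstp1 the GENCODE gene begins within this element. The MEF2 consensus was found in none of the 9 and in 3.19% of all windows. Neither Gstm1 nor Gstm2 had a match to any of these motifs in its window.

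Total expected counts lay between 72626757 and 85176059 per library, and the totals of the genotypes overlapped. Levels are given in CPM, counts scaled to TMM-adjusted library totals. A level of 3 counts, taken as the upper limit where a library shows 0, came to 0.0348 to 0.0419 CPM, which covers counting error only. Of the 16120 genes tested, 67 (0.416%) passed an adjusted p of 0.05 by the quasi-likelihood test of edgeR, 17 of them higher and 50 lower in Eko mice. That number was 99 without WT mouse 1, 299 without WT mouse 2, 204 without Eko mouse 1 and 126 without Eko mouse 2. The 2 Eko mice lay on 1 side of both WT mice for 43.8% of all genes tested, above them for 20.8% and below them for 23%. An unadjusted p below 0.05 was reached by 1864 genes, 11.6% of those tested. The study calls the mice littermates without saying which of them share a litter, and with 2 mice per genotype the spread is known only roughly. For 2 mice against 2, the smallest p of an exact permutation test (two-sided) is 0.333. The Mef2d gene, whose counts do not separate the α exons and so cannot check the deletion, had 19687 and 18393 counts in the WT mice, against 21695 and 17206 in the Eko mice.

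Muscle fibre markers were abundant in every library, with a summed level of 142000 to 149000 CPM over all 9, so the tissue matched its label. Of the 9, Myh4, Mylpf and Atp2a1 lay above WT in both Eko mice, and Acta1, Myh1 and Myh2 lay below. Over all genes tested, 20.8% lay above and 23% below. The summed level of the 8 adipocyte markers was 188 and 105 CPM in the WT mice, against 97.3 and 73.8 CPM in the Eko mice, and that of the 7 macrophage markers was 52.8 and 41.6 CPM in the WT mice, against 34.8 and 26.9 CPM in the Eko mice. The sums of the smooth muscle and pericyte markers (300 and 286 CPM in WT, 316 and 352 CPM in Eko), of the Schwann cell markers (40.3 and 42.7 CPM, then 44.5 and 53.7 CPM) and of the satellite cell markers (12.4 and 12.7 CPM, then 13.7 and 14.4 CPM) were higher in both Eko mice. Fibroblast, endothelial and red blood cell sums overlapped. Of the 7 fibroblast markers, 4 lay below WT in both Eko mice and 0 above, where 23% and 20.8% of all genes tested did. No marker of any list passed the test, and none was at 0 in all libraries. In bulk muscle, fewer cells of a type and less RNA per cell cannot be told apart, and the part of these cell types in the transferase levels was not tested.

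Gstm2, a mu-class enzyme that conjugates glutathione to a range of electrophiles, had the largest log2 fold change among the 8 tested genes. Counts were 791 and 1057 in the WT mice, against 1923 and 1590 in the Eko mice. These are levels of 10.4 and 13.1 CPM in the WT mice, against 22.3 and 22.2 CPM in the Eko mice. The genotypes did not overlap, and the WT mice differed from each other more than the Eko mice did. The mean level was 1.9-fold higher in Eko mice, and the lower Eko mouse was 1.7-fold above the higher WT mouse. The log2 fold change was 0.92 (standard error 0.11).

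Gstm1, the most abundant mu-class gene of this muscle, had 4361 and 5130 counts in the WT mice, against 7432 and 6408 in the Eko mice. Its level was 57.5 and 63.4 CPM in the WT mice, against 86.2 and 89.6 CPM in the Eko mice. Both Eko mice were above both WT mice, with a gap larger than the spread within either genotype. The mean level was 1.45-fold higher in Eko mice, a difference of 27.5 CPM and a log2 fold change of 0.54 (standard error 0.08). In CPM this was the largest difference between genotypes among the 10 genes, against 10.5 CPM for Gstm2.

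**Figure D1:**
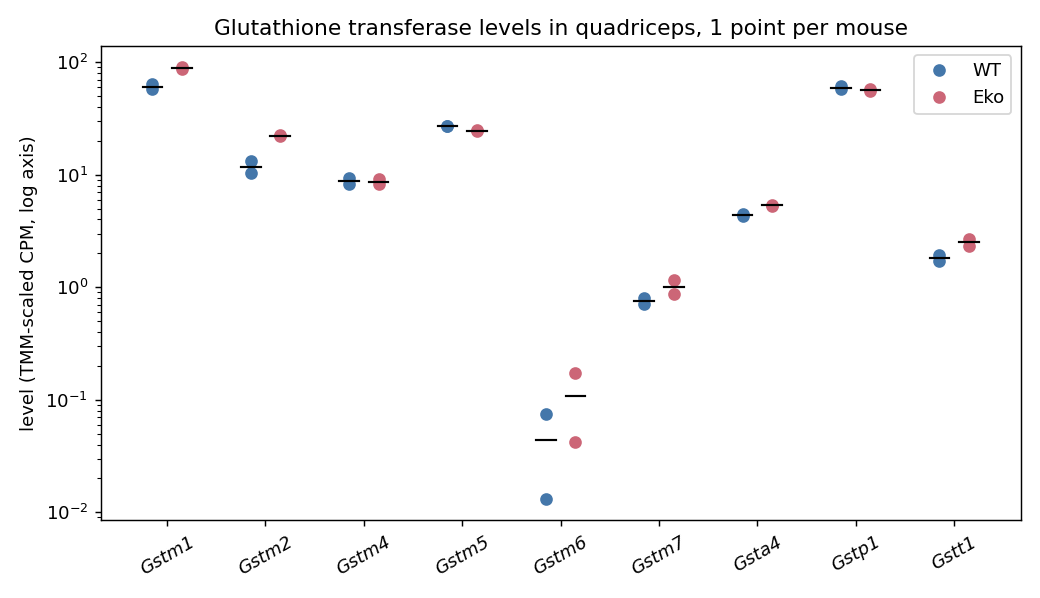
The y axis gives levels in TMM-scaled CPM on a log axis for 9 of the 10 genes on the x axis, since Gstm3 had no count, with 1 point per mouse and a black line at the mean of the 2 mice of a genotype. The Eko points of Gstm1 and Gstm2 stand clear of the WT points, and those of Gstm4 and Gstp1 overlap them.

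Of the 8 genes that passed the filter on low counts, 2, Gstm1 and Gstm2, were among the genes called at an adjusted p below 0.05, where 0.416% of all genes tested were called. Because the genes were chosen with this comparison known, nothing is read from that count. Gstm2 alone was called with RLE normalization and when WT mouse 1 or Eko mouse 2 was left out, and neither was called with a filter of 1 CPM in 2 libraries. Over these and the other settings the log2 fold change of Gstm1 stayed between 0.47 and 0.63 and that of Gstm2 between 0.77 and 1.11. Both extremes came from leaving out a WT mouse, the lower without mouse 1 and the higher without mouse 2. Mouse 1 had the lower Gstm1 and Gstm2 levels of the WT mice. It also had the highest adipocyte and macrophage marker sums, and a link between these was not tested.

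None of the other mu-class genes was called. Gstm5, which encodes the most divergent mu-class enzyme by coding sequence, had 2049 and 2164 counts in the WT mice, against 2086 and 1770 in the Eko mice. Its level was 27 and 26.8 CPM in the WT mice, against 24.2 and 24.7 CPM in the Eko mice, slightly lower in both Eko mice, with a log2 fold change of -0.14 (standard error 0.07). Gstm4 had 8.2 and 9.25 CPM in the WT mice, against 9.08 and 8.21 CPM in the Eko mice. Its genotypes overlapped, and its log2 fold change of -0.01 (standard error 0.11) was smaller than its error.

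The remaining mu-class genes had few counts or none. Gstm7 had 54 and 65 counts in the WT mice, against 99 and 62 in the Eko mice. Its level was 0.712 and 0.804 CPM in the WT mice, against 1.15 and 0.867 CPM in the Eko mice, with a log2 fold change of 0.41 (standard error 0.28), or 0.21 without Eko mouse 1. The genotypes did not overlap, but the Eko mice were further apart than the closest pair of the 2 genotypes. Gstm6 had 1 and 6 counts in the WT mice, against 15 and 3 in the Eko mice, too few to be tested. Gstm3 had 0 counts in every library, which allows a level of up to 0.0419 CPM in the shallowest library.

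Taken as a class, the mu genes had a summed level of 104 and 113 CPM in the WT mice, against 143 and 146 CPM in the Eko mice. The sum does not depend on how RSEM divided reads among the mu-class genes, though it does on the reads given to copies elsewhere. Its mean was 1.33-fold higher in Eko mice, a log2 ratio of 0.41 that stayed between 0.35 and 0.49 when any 1 mouse was left out. Without Gstm1 and Gstm2 the sum was 35.9 and 36.9 CPM in the WT mice, against 34.6 and 33.9 CPM in the Eko mice. The difference in the class thus lay in Gstm1 and Gstm2, whose joint level was 67.9 and 76.5 CPM in the WT mice, against 109 and 112 CPM in the Eko mice.

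The makeup of the mu-class counts differed accordingly. Gstm1 took 55.4% and 55.9% of them in the WT mice, against 60.2% and 61.5% in the Eko mice. Gstm2 took 10% and 11.5% in the WT mice, against 15.6% and 15.3% in the Eko mice. Both shares were higher in each Eko mouse. The share of Gstm5 was 26% and 23.6% in the WT mice, against 16.9% and 17% in the Eko mice, and that of Gstm4 was 7.9% and 8.16% in the WT mice, against 6.35% and 5.63% in the Eko mice. A lower share of these genes beside a nearly equal level follows from the larger total.

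**Figure D2:**
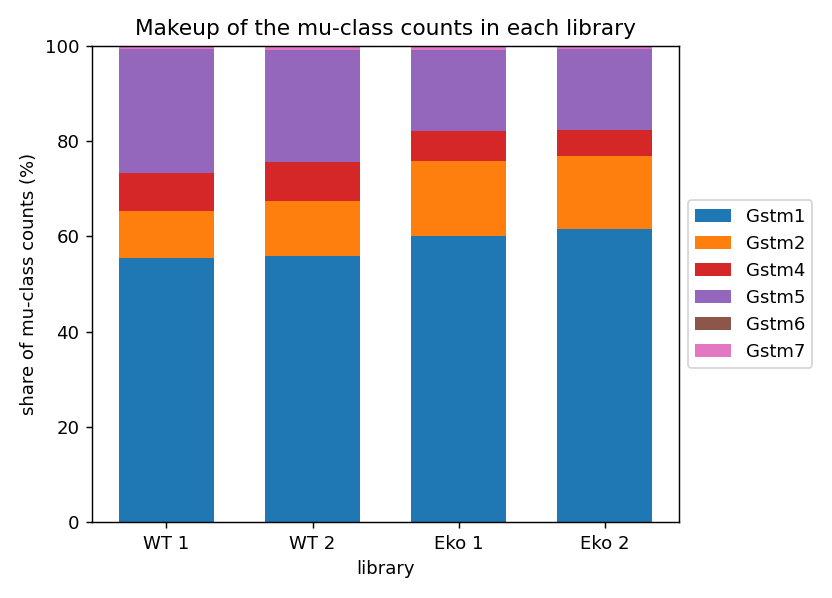
Each bar is 1 library on the x axis, and its height on the y axis is divided by the share of the mu-class counts, in percent, that each gene took, so every bar adds up to 100%. Gstm1 and Gstm2 together fill more of the Eko bars than of the WT bars, and Gstm5 fills less.

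Gstm2-ps1, a single-exon gene on chromosome 5 that RefSeq lists as a pseudogene, shares 27.6% of its windows with other genes, among them Gstm1. This gene was picked after seeing its values. Counts were 212 and 239 in the WT mice, against 377 and 369 in the Eko mice. Its level was 2.79 and 2.96 CPM in the WT mice, against 4.37 and 5.16 CPM in the Eko mice, or 0.73 ± 0.15 (standard error) on the log2 scale (adjusted p = 0.145 in the edgeR test). It was called with DESeq2, with the likelihood ratio test, with no filter on low counts and without Eko mouse 1, and its adjusted p lay between 0.00106 and 0.334 over the alternatives. Gstm1 and Gstm2-ps1 added together gave 60.3 and 66.4 CPM in the WT mice, against 90.6 and 94.8 CPM in the Eko mice, a 1.46-fold difference that is close to that of Gstm1 alone. How many of the reads of Gstm2-ps1 came from Gstm1 was not tested.

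None of the alpha, pi and theta genes was called. Gsta4, an alpha-class enzyme active on the lipid peroxidation product 4-hydroxynonenal, had 336 and 350 counts in the WT mice, against 467 and 376 in the Eko mice. Its level was 4.43 and 4.33 CPM in the WT mice, against 5.42 and 5.26 CPM in the Eko mice, and the log2 fold change came to 0.29 (standard error 0.12). Gstt1, a theta-class enzyme, had 148 and 138 counts in the WT mice, against 233 and 165 in the Eko mice. Its level was 1.95 and 1.71 CPM in the WT mice, against 2.7 and 2.31 CPM in the Eko mice, and the log2 fold change came to 0.46 (standard error 0.18). For both genes the Eko mice lay above the WT mice, a pattern that 20.8% of the genes tested showed.

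Gstp1, the pi-class enzyme, had 4350 and 4953 counts in the WT mice, against 4737 and 4102 in the Eko mice. Its level was 57.3 and 61.2 CPM in the WT mice, against 54.9 and 57.4 CPM in the Eko mice, and the genotypes overlapped. The log2 fold change was -0.08 (standard error 0.07) and lay between -0.125 and -0.015 with 1 mouse left out. Since Gstp1 shares much of its sequence with Gstp2 and Gstp-ps, their summed level, which does not depend on that division, was taken too. It was 119 and 130 CPM in the WT mice, against 115 and 118 CPM in the Eko mice. The median log2 fold change of the 8 tested genes was 0.35, against -0.005 over all genes tested, and 5 of them lay above and 1 below WT in both Eko mice, where 20.8% and 23% of all genes tested did. Nothing is read from these counts, since the genes were chosen with the values known.

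Levels can be compared between genes only per transcript length. In CPM per kb, the order in WT muscle was Gstp1 (mean 72.2), Gstm1 (46.9), Gstm5 (28.4), Gstm2 (11), Gstm4 (5.11), Gsta4 (4.48), Gstt1 (1.65) and Gstm7 (0.55), followed by Gstm6 and Gstm3 at or near 0. The values of the 2 WT mice did not overlap between any neighbours in that order. In Eko mice Gstp1 (68.4) and Gstm1 (68.2) could not be put in order, since the mice of Gstm1, at 66.9 to 69.5, lay among those of Gstp1, at 66.9 to 69.9. Gstm2 stood at 20.9, closer to Gstm5 at 25.9 than in WT, and Gsta4 at 5.46 had passed Gstm4 at 5.06.

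The rest of the glutathione transferases, 23 genes on the list and 21 in the table, were read from the same fit. Of the 16 tested, 0 were called by edgeR's quasi-likelihood test, where 0.416% of all genes were, 2 had an unadjusted p below 0.05, where 11.6% of all genes did, and their median log2 fold change was -0.16. DESeq2 called 1, Mgst3, and limma-voom and edgeR's likelihood ratio test called 0. Mgst3, a microsomal glutathione transferase, stood at 62 and 62.8 CPM in the WT mice, against 51.9 and 48.8 CPM in the Eko mice (-0.31 ± 0.07 on the log2 scale, where ± gives the standard error here and below, adjusted p = 0.180). The other 2 most abundant genes of the list belong to the pi class. Gstp2 had a log2 fold change of -0.08 (standard error 0.10) and Gstp-ps one of -0.15 (standard error 0.07). Mgst1, another microsomal enzyme, named because it was called when WT mouse 2 was left out, stood at 23.8 and 18.1 CPM in the WT mice, against 14.8 and 16.9 CPM in the Eko mice, with an adjusted p of 0.352 over all 4 mice, of 0.0388 without that mouse and of 0.00345 to 0.68 over all alternatives.

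Genes that make, recycle and use glutathione came next. Of the 30 tested of 33 in the list, 0 were called by edgeR's quasi-likelihood test, 7 had an unadjusted p below 0.05, and the median log2 fold change was -0.07. Over all genes tested, 0.416% were called and 11.6% had such a p. DESeq2 and edgeR's likelihood ratio test each called 2, Gpx1 and Glrx5, both lower in Eko mice, and limma-voom called 0. Gpx1, a peroxidase that reduces hydrogen peroxide with glutathione, stood at 38.9 and 39.2 CPM in the WT mice, against 29.6 and 31.4 CPM in the Eko mice (-0.36 ± 0.07 on the log2 scale, adjusted p = 0.133). Glrx5, a mitochondrial glutaredoxin, stood at 32.7 and 32.9 CPM in the WT mice, against 25.9 and 25.4 CPM in the Eko mice (-0.36 ± 0.07 on the log2 scale, adjusted p = 0.125). The most abundant genes of the list were Gpx3, the secreted peroxidase, with a log2 fold change of 0.16 (standard error 0.11), Gpx4, which reduces lipid hydroperoxides, with -0.19 (standard error 0.07), and Glo1, a glyoxalase, with 0.09 (standard error 0.08). The value of Gpx3 was -0.006 without Eko mouse 2 and 0.32 without Eko mouse 1.

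Nrf2, its inhibitor and their common targets gave 0 calls of 24 tested by edgeR's quasi-likelihood test, 4 genes with an unadjusted p below 0.05 and a median log2 fold change of -0.07, beside 0.416% called and 11.6% with such a p over all genes tested. DESeq2, limma-voom and edgeR's likelihood ratio test each called 0. Nfe2l2, which encodes Nrf2, stood at 37.1 and 37.4 CPM in the WT mice, against 36.9 and 39.3 CPM in the Eko mice, and Keap1 at 72.8 and 76.2 CPM in the WT mice, against 70.4 and 78.7 CPM in the Eko mice. Nqo1, a quinone reductase widely used as a readout of Nrf2 activity and named here for that use, stood at 11.1 and 12.3 CPM in the WT mice, against 12.4 and 16.6 CPM in the Eko mice (0.31 ± 0.14 on the log2 scale, adjusted p = 0.477). That value was 0.09 without Eko mouse 2 and 0.52 without Eko mouse 1. The most abundant genes of the list were the ferritin heavy chain Fth1, with a log2 fold change of -0.16 (standard error 0.07), the autophagy receptor Sqstm1, with 0.03 (standard error 0.09), and the malic enzyme Me1, with 0.05 (standard error 0.08).

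**Figure D3:**
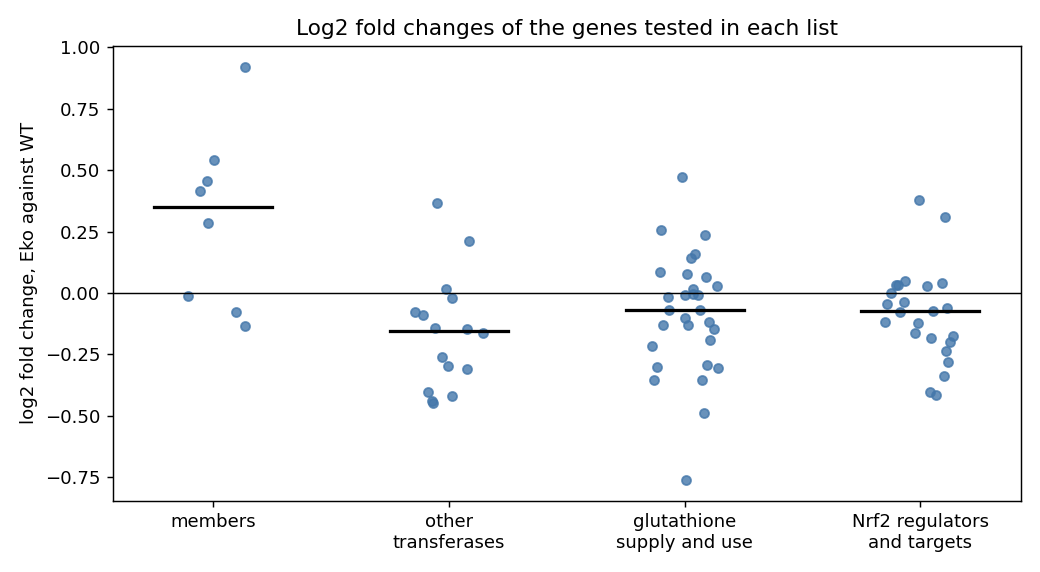
Each point on the y axis is the log2 fold change, Eko against WT, of 1 tested gene, grouped on the x axis into the 8 tested of the 10 transferases described here (labelled members) and 3 related lists, with a black line at the median. The median is 0.35 for the first group, which was chosen with these values known, and lies between -0.16 and -0.07 for the 3 lists.

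The genes around the cluster were taken as its neighbourhood, without the 9 other genes inside its span and any gene overlapping its edge. Of the 32 genes tested within 1 Mb of the cluster, 0 were called by edgeR's quasi-likelihood test, 4 had an unadjusted p below 0.05, and their median log2 fold change was 0.09. Over all genes tested, 0.416% were called and 11.6% had such a p. DESeq2, limma-voom and edgeR's likelihood ratio test called 0. Both Eko mice lay above both WT mice for 11 of the 32 and below them for 4, where 20.8% and 23% of all genes tested did. The nearest tested genes wholly outside the span were Csf1, the macrophage growth factor, and Ampd2, an AMP deaminase. Csf1 stood at 8.83 and 8.05 CPM in the WT mice, against 7.91 and 7.82 CPM in the Eko mice. Ampd2 stood at 4.18 and 3.78 CPM in the WT mice, against 4.33 and 3.52 CPM in the Eko mice. Their log2 fold changes were -0.10 (standard error 0.10) and -0.02 (standard error 0.15).

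The 278 genes tested between Mef2d and the cluster include those within 1 Mb on that side. Of them, 1 was called by edgeR's quasi-likelihood test (0.36%), against 0.416% of all genes tested, and the median log2 fold change was -0.04. DESeq2 called 3, edgeR's likelihood ratio test 2 and limma-voom 0. The gene called by the quasi-likelihood test was Slc16a1, which encodes the monocarboxylate transporter MCT1. Counts were 3213 and 3489 in the WT mice, against 2601 and 2212 in the Eko mice, a level of 42.3 and 43.1 CPM in the WT mice, against 30.2 and 30.9 CPM in the Eko mice. It fell by 0.49 on the log2 scale (standard error 0.07, adjusted p = 0.0484 in edgeR's quasi-likelihood test). The log2 fold change stayed between -0.53 and -0.45 over all alternatives. The call was lost with RLE normalization, limma-voom and the filter of 1 CPM, and without either Eko mouse, where the adjusted p was 0.0703 without mouse 1 and 0.0706 without mouse 2. Over all alternatives it lay between 1.04e-05 and 0.0706.

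**Figure D4:**
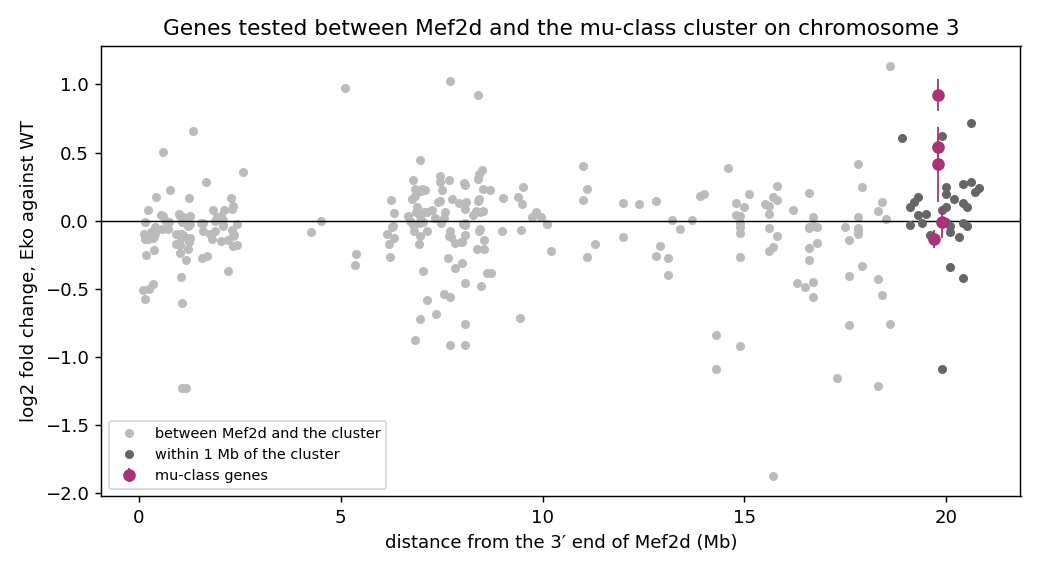
The x axis is the distance in Mb from the 3′ end of Mef2d and the y axis the log2 fold change, Eko against WT, of each gene tested, in light grey between Mef2d and the cluster, dark grey within 1 Mb of the cluster and purple for the mu-class genes with their standard errors. Gstm2 and Gstm1 are the highest purple points, at 0.92 and 0.54, and the dark points beside them spread from -1.09 to 0.71. Other genes inside the cluster are not drawn.

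The 5 tested genes whose levels over the 4 libraries were most like those of Gstm2, by the Euclidean distance of log2 CPM centred on each gene's mean, were Fat3, Pacsin1, 3632451O06Rik, Fgfbp1 and Galnt5, at distances of 0.07 to 0.13. Fat3, a large cadherin, stood at 1.13 and 1.34 CPM in the WT mice, against 2.38 and 2.41 CPM in the Eko mice. Fgfbp1, a secreted carrier of fibroblast growth factors, stood at 2.73 and 3.46 CPM in the WT mice, against 5.57 and 5.29 CPM in the Eko mice. None of the 5 was called by edgeR's quasi-likelihood test, and DESeq2 called Fat3, 3632451O06Rik and Fgfbp1. With 4 libraries, likeness of this kind mostly restates the difference between the genotypes.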

How the data were processed

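RNA from the quadriceps of 2 WT and 2 Mef2dα2 Eko male mice was selected for polyA, and libraries were made with a stranded kit. Per the methods and labels, the authors aligned reads to mm10, the GRCm38 mouse genome, and deposited the RSEM expected counts of each gene, with no normalization. STAR 2.6.1a is named in the submitters' processing notes. The deposited expected counts held 0 values that were not whole, so rounding changed none. Every pair of libraries differed beyond sampling noise (chi-square per degree of freedom 38.7 to 235). Genotype came from the labels.

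Counts were compared in R 4.3.3 with edgeR 4.0.16 (quasi-likelihood test, TMM, default filter on low counts), which tested 16120 of 24621 genes with any count, with Benjamini-Hochberg adjustment at 0.05. The standard error of each log2 fold change was derived from its F value. The tests were tested on simulated data. Positions, lengths and sequences came from GENCODE M21 on GRCm38, where 91.6% of rows matched by symbol. This is not the annotation used for counting, so gene limits can differ. Sequence identity is the share of identical bases among aligned bases of the longest coding sequence.

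The genes and lists were chosen with earlier results of these data known. Named are all 10 genes, Mef2d, the 3 most abundant and any called gene of each list, the called genes and nearest neighbours on chromosome 3, and the 5 genes nearest to Gstm2. Gstm2-ps1, the named fibre markers, and genes named for a call under another setting or for their role are outside that rule. The last are Mgst1, Gpx1, Glrx5, Nfe2l2, Keap1 and Nqo1. All of these were chosen after their values were seen. Alternatives were DESeq2 1.42.0, limma-voom (limma 3.58.1), edgeR's likelihood ratio test, RLE and upper-quartile normalization, no filter and a filter of 1 CPM in 2 libraries, the replicate number as a block, leaving out each mouse, a GC correction and the mu-class genes summed to 1 row.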

Additional observations from a re-analysis of the deposited data

How the results depend on the processing

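The number of genes called over the whole table was 67 and moved to 799 with no filter on low counts, 23 with the filter of 1 CPM, 318 with DESeq2, 312 with the likelihood ratio test and 186 with the replicate block, and lay between 99 and 299 with 1 mouse left out. RLE (58), upper-quartile normalization (64), limma-voom (57), the GC correction (54) and the summed mu-class row (65) kept it within 1.5 times. The transferases called were 1 with RLE, 0 with the filter of 1 CPM and 1 to 2 with 1 mouse left out. Calls among the other transferases were 2 with no filter, 1 with DESeq2 and 0 to 1 with 1 mouse left out. Among the glutathione supply and use genes they were 4 with no filter, 2 with DESeq2 and 2 with the likelihood ratio test. Among the Nrf2 genes and among the genes beside the cluster, no filter gave 1 call each. Between Mef2d and the cluster, calls were 0 with RLE, the filter of 1 CPM and limma-voom, 5 with no filter, 3 with DESeq2, 2 with the likelihood ratio test, 2 with the replicate block and 1 to 2 with 1 mouse left out. The summed mu-class log2 ratio ranged from 0.35 to 0.491 with 1 mouse left out. Of the values of single named genes under these settings, 418 stayed on their side of the threshold, 25 passed it newly and 10 no longer passed it, and none that was called in either fit changed direction. Leaving out 1 mouse turned the sign of Gstm4, Gstp2, Mef2d, Nfe2l2, Gpx3, Glo1, Sqstm1, Me1 and Ampd2, none of them called. Keap1, whose log2 fold change rounded to 0 over all 4 mice, lay between -0.083 and 0.093 over the alternatives. The cause of these moves was not tested.

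Mice with the same replicate number deviated together only weakly (Pearson correlation 0.162 across genes), no source used here says which mice share a litter, and 2 pairs cannot show a pairing, so the numbers were not read as pairs. In the fit with the replicate block, Gstm1 had a log2 fold change of 0.54 and Gstm2 one of 0.93, and both stayed called.

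Log2 fold changes fell with transcript GC content across genes (Spearman correlation -0.222 over 15575 genes, which are not independent replicates). With the GC correction Gstm1 was at 0.57 and Gstm2 at 0.94. With 2 mice per genotype, low counts limit Gstm6, Gstm7 and Gstt1, and Gstm3 had no counts at all. Reads shared among near copies limit Gstm1 and Gstp1 further.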
